A study of Homo sapiens with 2 samples.

Results

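Where GATA2 sat around 6 genes of the ETS family in a prostate cancer cell line was read from the deposited list of GATA2 peaks. The genes were ETV1, ETV4, ETV5, SPDEF, EHF and ELF3. A peak was counted for a gene when its midpoint lay in a window made of the gene body and 0.1 Mb on each side, with positions in hg19 given to 0.01 Mb. This rule used position alone and no score. It found 31 peaks of the 36797 in the list, of which 9 lay around EHF, 7 around ELF3, 7 around ETV1, 4 around ETV4, 2 around ETV5 and 2 around SPDEF.

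The samples were 2 replicate chromatin immunoprecipitations (ChIP-seq) with an antibody against GATA2 in LNCaP cells, an established line from a human prostate cancer that responds to androgens, at passages 32 to 34. Both replicates belong to 1 group. All cells were grown in RPMI with 10% serum and moved for the 3 days before the assay to 5% charcoal-treated serum, in which steroids such as androgens are largely removed. The labels used here name no genotype change and no added agent, and they give no control samples. There is 1 list of peaks for both replicates, with no value per replicate, so nothing below has a replicate error and no p-value could be computed. Read depth is unknown, so a gene with no peak was not shown to lack GATA2. As a cell line, LNCaP stands for 1 tumour, and it is known to carry the ETV1 locus inserted into another chromosome, so which copy a peak at ETV1 comes from cannot be told apart.

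GATA2 is a zinc-finger transcription factor that binds GATA sequences and, in prostate cells, is known as a partner of the androgen receptor and of FOXA1 at enhancers. ETS factors share a DNA-binding domain that reads a GGAA core. ETV1, ETV4 and ETV5 form the PEA3 subfamily, whose members drive branching growth and, when rearranged or overexpressed, are oncogenic in prostate cancer. SPDEF, EHF and ELF3 are ETS factors of epithelial cells: SPDEF was first described in prostate and marks luminal and secretory cells, and EHF and ELF3 belong to the epithelium-specific subfamily that maintains epithelial differentiation.

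The DNA just before the starts of these genes is shown so that the GATA content of the promoters can be seen beside the peaks. The 4 genes with an entry in the RefSeq promoter table (GRCh38.p14) are shown, each as the 250 bases before a start, read 5′ to 3′ on the gene's own strand. ETV4 and ETV5 had none. Capitals mark the GATA word AGATAA, its forms with T as the first letter, with G as the last letter or with both, and the complements of these, so both strands were searched. These coordinates are of GRCh38.p14 and cannot be set against the hg19 peak positions.
EHF outer start, chr11:34624007-34624256, plus strand: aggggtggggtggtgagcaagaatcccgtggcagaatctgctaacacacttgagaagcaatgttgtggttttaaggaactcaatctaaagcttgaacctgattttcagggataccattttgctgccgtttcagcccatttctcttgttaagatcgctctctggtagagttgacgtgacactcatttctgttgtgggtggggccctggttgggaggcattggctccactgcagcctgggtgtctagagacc
EHF inner start, chr11:34632316-34632565, plus strand: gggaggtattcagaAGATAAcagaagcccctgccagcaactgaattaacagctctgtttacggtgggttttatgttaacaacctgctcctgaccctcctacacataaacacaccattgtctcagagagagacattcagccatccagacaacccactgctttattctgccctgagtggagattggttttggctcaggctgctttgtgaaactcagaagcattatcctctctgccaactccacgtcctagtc
ELF3 start, chr1:202010337-202010586, plus strand: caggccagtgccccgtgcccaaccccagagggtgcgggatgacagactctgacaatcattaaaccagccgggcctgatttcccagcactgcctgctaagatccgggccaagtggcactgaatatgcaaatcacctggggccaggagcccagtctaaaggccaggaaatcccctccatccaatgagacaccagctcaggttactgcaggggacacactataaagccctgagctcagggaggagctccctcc
SPDEF start, chr6:34556330-34556579, minus strand: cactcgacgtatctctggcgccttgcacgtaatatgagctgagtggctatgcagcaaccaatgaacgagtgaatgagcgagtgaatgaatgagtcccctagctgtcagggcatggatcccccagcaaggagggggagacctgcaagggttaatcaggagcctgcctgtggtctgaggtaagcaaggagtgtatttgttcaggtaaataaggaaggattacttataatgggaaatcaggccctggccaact
ETV1 outermost start, chr7:13991426-13991675, minus strand: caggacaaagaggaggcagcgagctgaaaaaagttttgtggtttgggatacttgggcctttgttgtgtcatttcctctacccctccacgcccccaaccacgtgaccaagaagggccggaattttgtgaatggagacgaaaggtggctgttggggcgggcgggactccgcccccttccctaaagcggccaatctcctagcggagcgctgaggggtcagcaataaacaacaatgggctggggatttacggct
Of the 10 starts that the table lists for these 4 genes, 1 held such a word in its 250 bases, the inner start of EHF, with AGATAA beginning 236 bases before the start. Over all 35116 starts in the table the share was 22.3%. Some of the ETV1 starts lie so close that their 250 bases overlap, so the same DNA is counted more than once. The 6 starts of ETV1, the 1 of SPDEF, the 1 of ELF3 and the outer start of EHF held none, which says only that these letters are not in these windows. No hg19 sequence was used here, so the bases under the peaks themselves were not analysed.

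The 6 windows together held more GATA2 peaks per unit length than the list as a whole, though ETV5 and SPDEF each held fewer. As deposited, the density was highest around EHF. The order of the genes, EHF included, depends on the settings given below. The 31 peaks lay in 1.51 Mb, or 20.5 peaks per Mb (exact Poisson 95% interval 13.9 to 29.1, for counting over peaks only), against 12.8 per Mb over the usable chromosome length of the list. That is 1.60 times the density of the list. Leaving out 1 window at a time gave from 1.36 times, without EHF, to 1.82 times, without ETV5. Without EHF the density was 17.5 per Mb, and no interval was computed for it. The epithelium-specific pair EHF and ELF3 held 16 peaks in 0.47 Mb, or 34.0 per Mb (95% interval 19.5 to 55.3). The PEA3 genes held 13 peaks in 0.81 Mb, or 16.0 per Mb (95% interval 8.55 to 27.4). SPDEF held 2 in 0.23 Mb, or 8.70 per Mb (95% interval 1.05 to 31.4), below the density of the list, but with a flank of 0.2 Mb it held 20.9 per Mb, above it. Within the PEA3 genes the density ran from 7.41 per Mb at ETV5 to 22.6 at ETV1. The intervals of the PEA3 genes and SPDEF include the density of the list, and that of the pair does not. The intervals of the pair and of the PEA3 genes overlap, and a difference between the subfamilies was not tested. These intervals treat peaks as independent, which neighbouring peaks are not.

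Each window was then set beside all non-overlapping tiles of its own length along the usable chromosomes, as a description of how often such a count occurs. For EHF, a tile of 0.25 Mb held at least 9 peaks in 3.34% of 11451 tiles, and the median tile held 3. For ELF3, at least 7 peaks in 0.22 Mb were found in 6.85% of 13012 tiles, with a median of 2. ETV1, with 7 peaks in 0.31 Mb, was matched or exceeded by 17.3% of 9227 tiles. As deposited, the counts of EHF and ELF3 thus lay toward the crowded end of the tiles, and that of ETV1 less so. For ETV4, at least 4 peaks were found in 33.7% of tiles of 0.23 Mb. For ETV5, at most 2 peaks were found in 42.7% of tiles of 0.27 Mb, and for SPDEF, at most 2 in 50.3% of tiles of 0.23 Mb. The counts of ETV4, ETV5 and SPDEF thus lay in the middle of the range of the tiles. They depend on the flank, since with 0.2 Mb on each side ETV4 and SPDEF had 9 peaks each, or 20.9 per Mb, above the 19.0 per Mb of ELF3, and ETV5 had 4. The count of ELF3 depends on weak peaks. At a score of at least 100 ELF3 kept 4 peaks, or 18.2 per Mb, and ETV1 kept 7, or 22.6 per Mb, so their order reversed. In the better-scoring 50% of the list ELF3 had 2 peaks, or 9.09 per Mb, and ETV1 4, or 12.9. ETV4 had 4, or 17.4, and EHF 5, or 20.0. The list is thinner under these thresholds too, so these densities cannot be set against its 12.8 per Mb. The 6 windows held 1.53 times the list's density at a score of at least 100 and 1.65 times in the better-scoring 50%. In the best-scoring 10% EHF, ETV4 and ETV5 had no peak, and ETV1, SPDEF and ELF3 had 1 each. Only 3 peaks, or 1.99 per Mb, were left over the 6 windows, so a window without a peak there says little. The tiles were not limited to those with genes.

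**Figure D1:**
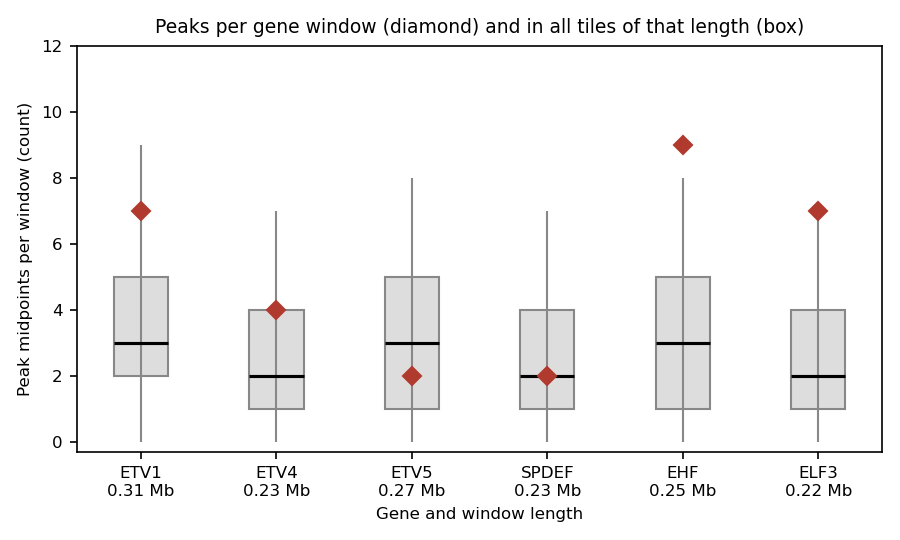
The y axis is the number of peak midpoints per window and the x axis the 6 genes with their window lengths; the diamond is the gene's own window, the box the middle 50% of all tiles of that length, the bar in it their median, and the line their 5th to 95th percentile. EHF, at 9, lies above the 95th percentile of 8, ELF3 lies at the 95th percentile of 7, and ETV5 and SPDEF lie at or below the median tile.

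Around ETV1, a factor of the PEA3 subfamily that is itself an oncogene in prostate cancer, GATA2 had the highest-scoring of the 31 peaks. It lay inside the gene body at 13989045 to 13989492 of chromosome 7, was 448 bp wide and had a score of 1348.14. The score was assigned by the authors' peak caller, has no stated unit and is used here only to rank peaks within this list, where this peak was number 358 from the top (percentile 99.0). Its midpoint was 50.7 kb from the higher bound of the gene body, the side on which ETV1 starts, and 31.04 kb from the nearest other peak. No other peak in the gene body scored as high.

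The other 6 peaks at ETV1 scored from 124.45 to 312.46, and none was in the top 25% of the list, which begins at a score of 396.84. A pair lay in the gene body toward its start, at 14020180 to 14020439 with a score of 180.49 and at 14028341 to 14028716 with a score of 312.46, with midpoints 8.22 kb apart. The latter was 11.5 kb from the higher bound. Farther upstream, 49.1 and 49.6 kb beyond that bound, a closer pair at 14088947 to 14089243 and 14089420 to 14089729 scored 160.28 and 254.49, with 176 bp between their edges. With peaks less than 500 bp apart merged, these count as 1, and the 31 peaks become 30. A weak peak of score 124.45 at 14120386 to 14120547 lay 80.5 kb upstream, and 1 of score 230.91 at 13835954 to 13836262 lay 93.9 kb past the other end of the gene.

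ETV4, the PEA3 factor that gave the subfamily its name, had 4 peaks of middling score. The peak at 41616764 to 41617020 of chromosome 17 lay in the gene body and scored 213.79 (percentile 50.3). The peak at 41595355 to 41595675 scored 284.54, the highest of the 4, and lay 4.49 kb below the lower bound of the gene body, a distance smaller than the 0.01 Mb to which the bound is given. The remaining pair, at 41698165 to 41698423 and 41703339 to 41703601, lay 68.3 and 73.5 kb beyond the higher bound, scored 246.92 and 214.54 and had midpoints 5.18 kb apart. All 4 scores were above the list median of 212.2 and none reached the top 25%. The neighbouring protein-coding genes in RefSeq are DHX8 and MEOX1.

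ETV5, the third PEA3 factor, had no GATA2 peak in its gene body. The stretch without a peak ran from 185668993 to 185876104 of chromosome 3, or 207.1 kb, and covered the whole body of 0.07 Mb. Of the 36751 peak-free stretches between neighbouring peaks in the list, long stretches above 2.5 Mb aside, 8.41% were at least as long. Such stretches make up 38.6% of the usable length. The 2 peaks of the window lay in the flanks. The peak at 185668812 to 185668992 scored 92.45 (percentile 7.86) and that at 185876105 to 185876392 scored 189.34 (percentile 44.6), 46.2 kb beyond the higher bound. A stronger peak of score 407.34 at 185658789 to 185659187 missed the window by 1.01 kb. The neighbouring protein-coding genes are TRA2B and DGKG.

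SPDEF, the prostate-derived ETS factor of luminal cells, also had no peak in its gene body. The peak-free stretch over it ran from 34393998 to 34576840 of chromosome 6, or 182.8 kb, and 10.5% of stretches in the list were at least as long, making up 43.9% of the usable length. Both peaks of the window lay upstream, on the side where transcription of SPDEF starts. A weak and narrow peak at 34576841 to 34576979, 139 bp wide, scored 89.98 (percentile 6.52). The peak at 34618465 to 34619190 was 726 bp wide and scored 1022.09, the second highest of the 31 (percentile 96.6 by score and 98.9 by width). It lay 88.8 kb upstream of the gene body, toward the neighbouring gene ILRUN, and no annotation of hg19 was used to say which gene it lies in. On the other side, toward PACSIN1, the nearest peak scored 152.39 and lay 6.12 kb outside the window.

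Few peaks lay close to the bounds of the windows, which decide membership. Just inside, the nearest to a bound were the ETV1 peak of score 230.91 at 6.11 kb, the ETV5 peak of score 92.45 at 8.90 kb and the EHF peak of score 582.96 at 10.01 kb. Just outside, beside the ETV5 and SPDEF peaks above, the nearest scored 125.58 at 16.6 kb from the ETV1 window, 135.09 at 25.4 kb from that of EHF, 369.2 at 34.7 kb from that of ELF3, 119.17 at 34.9 kb from the higher bound of the ETV5 window and 485.92 at 35.2 kb from that of ETV4.

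**Figure D2:**
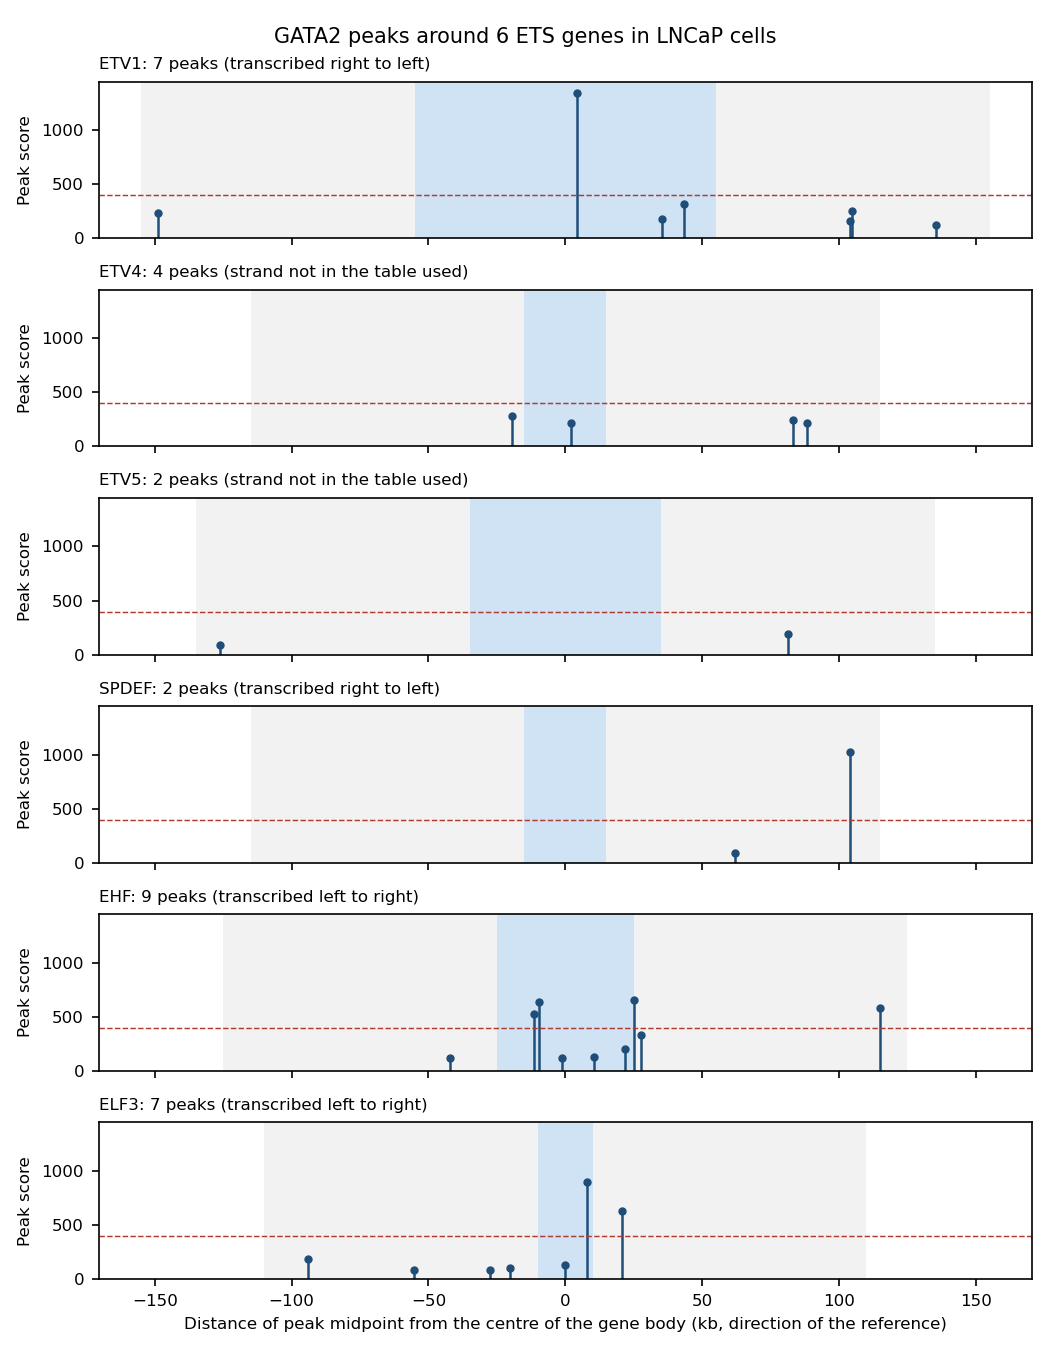
Each panel is 1 gene, the x axis is the distance of a peak's midpoint from the centre of the gene body in kb along the reference, and the height is the peak score; blue shading is the gene body, grey shading the flanks of 0.1 Mb, and the dashed line the score of 396.84 at which the top 25% of the list begins. Peaks crowd into the EHF body, the highest peak of ETV1 is inside the gene, and the bodies of ETV5 and SPDEF are empty.

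As deposited, EHF, an epithelium-specific factor that maintains the differentiated state of epithelial cells, had the most GATA2 peaks per Mb of the 6 genes. In the best-scoring 10% of the list it had none, as had ETV4 and ETV5, with only 3 peaks left over the 6 windows. Its window held 9 peaks, or 36.0 per Mb, which covered 1.45% of its length against 0.397% of the usable length of the list. In the gene body of 0.05 Mb there were 6 peaks. With successive midpoints no more than 12.5 kb apart, 7 peaks formed a run over 39.6 kb of chromosome 11 (34653259 to 34692904). This rests on the limit chosen, since gaps of 11.8 and 11.4 kb lay inside the run. At the 10 kb used below for close neighbours it would break, and no piece would hold 5 peaks. The run began in the gene body and ended 2.73 kb past the higher bound, where transcription of EHF ends. That distance is less than the 0.01 Mb to which the bound is given. Across the list, 180 runs held at least 5 such peaks and included 3.58% of all peaks. Of these runs, 55 held at least 7 peaks. The run's median score of 334.45 was high among them, with 17 of the 180 runs at or above that value, EHF included.

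The stronger peaks of the EHF run lay toward its ends. At its beginning 2 broad peaks, 1.72 kb apart by midpoint, lay at 34653259 to 34654035 and 34655062 to 34655681. The first was 777 bp wide, the widest of the 31 (percentile 99.2 by width), and scored 528.16, and the second was 620 bp wide and scored 637.21. Inside the run were peaks of score 121.54 at 34663450 to 34663781, 125.89 at 34675282 to 34675545 and 199.53 at 34686694 to 34687004, all below the list median. At its end, the peak at 34689710 to 34690164 scored 652.54, the highest at EHF (percentile 88.8), and that at 34692561 to 34692904 scored 334.45. The midpoint of the former was 0.064 kb inside the higher bound, which is given only to 0.01 Mb, and the peak of score 199.53 was 3.15 kb inside it, so 4 of the 6 peaks lay in the body by more than the rounding.

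The other 2 peaks at EHF lay apart from the run. A weak peak of score 119.62 at 34622603 to 34622789 lay 17.3 kb upstream of the lower bound, and a peak of score 582.96 at 34779820 to 34780154 (percentile 86.3) lay 89.99 kb beyond the end of the gene. The next protein-coding gene upstream of EHF in RefSeq is ELF5, another epithelium-specific ETS gene, and the next downstream is APIP.

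ELF3, the other epithelium-specific factor, had 7 peaks whose scores differed by side. The 4 peaks upstream of the gene body on chromosome 1 were weak. They lay at 201885779 to 201886028 with a score of 185.77, 201924451 to 201924633 with 85.99, 201952499 to 201952653 with 87.18 and 201959605 to 201959784 with 99.10, and all 4 were below the list median. In the gene body a peak at 201979607 to 201979935 scored 134.62, and another at 201987554 to 201988182, 629 bp wide, scored 894.26 (percentile 94.7), the third highest of the 31. The latter lay 2.13 kb inside the bound at which ELF3 ends and the former 9.77 kb inside the other bound, both less than the 0.01 Mb to which bounds are given, so neither is placed in the body by more than the rounding. A peak of score 634.51 at 202000650 to 202001015 followed 13.0 kb on, 10.8 kb beyond the gene. The higher scores at ELF3 thus lay near and past the end of the gene. Upstream of ELF3 lies RNPEP in RefSeq, and downstream GPR37L1, and which gene the flanking peaks lie in was not analysed.

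The scores of the 31 peaks did not stand apart from those of the list. The median score of the 31 was 213.79 (exact 95% interval from order statistics 134.62 to 312.46) and that of the whole list 212.2. In the top 25% of the list there were 8 of the 31, or 25.8% (Wilson 95% interval 13.7% to 43.2%), beside a background of 25% by definition. These 8 were 4 of the 9 at EHF, 2 of the 7 at ELF3, 1 of the 7 at ETV1, 1 of the 2 at SPDEF and none of the 6 at ETV4 and ETV5. In the best-scoring 10% there were 3, namely 1 each at ETV1, SPDEF and ELF3. Scores under 100 were held by 5 of the 31, beside 11.9% of the list. Within the family the epithelium-specific pair had a median of 192.7 (95% interval 119.6 to 634.5) and the PEA3 genes one of 214.54 (95% interval 160.28 to 284.54), and these intervals overlap. The median width was 309 bp (95% interval 259 to 335 bp) against 293 bp in the list.

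**Figure D3:**
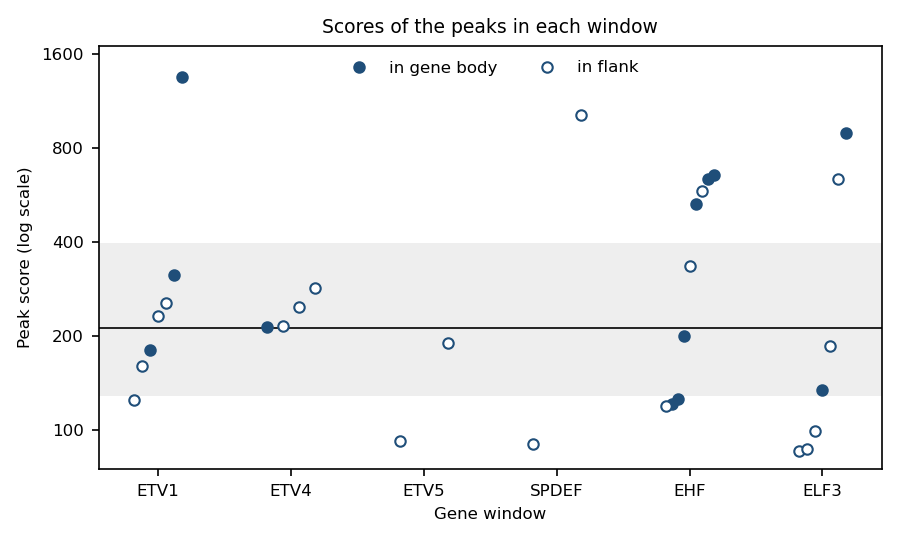
The y axis is the peak score on a log scale and each point is a peak, filled when in the gene body and open when in a flank; the grey band is the middle 50% of all peaks in the list and the line their median of 212.2. EHF and ELF3 each have a group of peaks above the band and a group near or below its lower edge, and the 4 peaks of ETV4 lie close together just above the median.

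A larger share of the peaks at these genes than of the list had a close neighbour, though not at every gene. A neighbouring midpoint lay within 10 kb for 17 of the 31, or 54.8% (Wilson 95% interval 37.8% to 70.8%), beside 33.2% of all peaks in the list. The median nearest-peak distance of the 31 was 8.24 kb, and that of the list 19.1 kb. Such close neighbours were found for 6 of 9 peaks at EHF, 4 of 7 at ELF3, 4 of 7 at ETV1, 2 of 4 at ETV4, 1 of 2 at ETV5 and 0 of 2 at SPDEF. The neighbour of the ETV5 peak lay 9.91 kb away, outside the window. Neighbouring peaks count each other, so these are not independent observations. Closer neighbours also go with a higher density of peaks, so this is not separate from the densities above.

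Gene bodies held a larger share of the peaks than of the length. The same comparison was not made for other genes, so whether this is particular to these 6 was not tested. They held 12 of the 31 peaks, or 38.7% (Wilson 95% interval 23.7% to 56.2%), in 20.5% of the length. The density was 38.7 per Mb in the bodies and 15.8 per Mb in the flanks, a ratio of 2.44. Without the EHF window the ratio was 1.44. Of the 12 peaks, 4 lay less than 0.01 Mb inside a bound, 2 at EHF and 2 at ELF3. With the bodies narrowed by 0.01 Mb at each end, which leaves no ELF3 body, they held 8 peaks and the ratio was 2.42. Narrowing also cut their length, from 0.31 to 0.19 Mb. It could not move in the peaks 2.73 kb outside the EHF body and 4.49 kb outside that of ETV4. Widened bodies were not run, so the effect of the rounding was covered in 1 direction only. By gene, the bodies held 6 peaks at EHF, 3 at ETV1, 2 at ELF3, 1 at ETV4 and none at ETV5 and SPDEF. Of the 8 peaks in the top 25%, 5 lay in gene bodies and 3 in flanks, and with the narrowed bodies 3 and 5. The median score was 263.1 in bodies and 189.34 in flanks, and 263.1 and 199.53 with the narrowed bodies. Among the 4 genes with a strand in the table, the flanks held 10 peaks upstream and 4 downstream of the gene body. The downstream 4 scored 230.91 at ETV1, 334.45 and 582.96 at EHF and 634.51 at ELF3. The peak of 334.45 lay 2.73 kb past the bound, less than the 0.01 Mb rounding, so it may lie in the body. Of the upstream 10 only the SPDEF peak of 1022.09 exceeded 254.49.

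**Figure D4:**
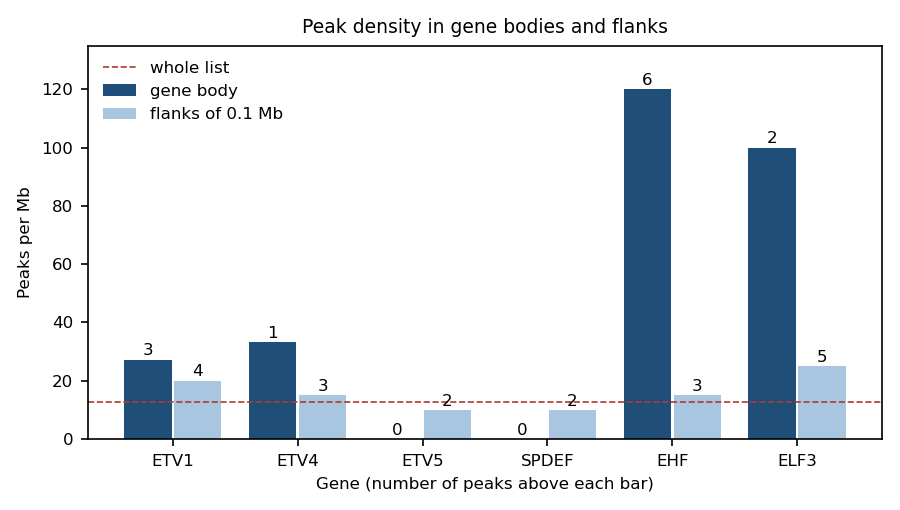
The y axis is peaks per Mb in the gene body (dark bars) and in the flanks of 0.1 Mb (light bars) of each gene on the x axis, with the number of peaks above each bar and the density of the whole list, 12.8 per Mb, as a dashed line. The EHF and ELF3 bodies reach 120 and 100 per Mb from 6 and 2 peaks, of which 2 and 2 lie within the 0.01 Mb rounding of a bound, and the ETV5 and SPDEF bodies hold none.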

How the data were processed

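GATA2 ChIP-seq libraries from 2 LNCaP samples were amplified for 16 cycles, size-selected at about 225 bp and read on an Illumina Genome Analyzer, per the labels' protocols. Per the submitters' processing notes, the aligner was Bowtie and the build hg19. The names of the deposited peaks point to MACS as the caller, and the deposited score of each peak comes from it. Not given in the sources used here are tool versions, any control library, duplicate handling and whether replicates were pooled.

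Starts were converted to 1-based positions. The usable length was the length from the first to the last peak of each chromosome less peak-free stretches above 2.5 Mb. Densities, tiles, runs and intervals were computed with scipy 1.17.1, pandas 2.3.3 and numpy 2.4.6 under Python 3.11.15, and the code was checked on simulated lists. Intervals cover counting over peaks only. The members, lists and comparisons were chosen with earlier results of these data known. Every peak in the windows is named. Alternatives were score thresholds, overlap, merging, flank length and leaving out each window. With no hg19 genome or annotation used here, exons, introns, motifs under peaks and other ETS genes were not analysed. Gene order, strand and promoter sequences came from RefSeq tables of GRCh38.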

Additional observations from a re-analysis of the deposited data

How the results depend on the processing

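The density of peaks in the 6 windows relative to the list, 1.60 times, stayed between 1.36 and 1.97 times under all alternatives run except gene bodies with no flank, where it was 3.02 times. By construction the 31 peaks became 16 in the better-scoring 50% of the list, 3 in the best-scoring 10%, 12 in gene bodies alone and 50 with a flank of 0.2 Mb. The density of 20.5 per Mb became 10.6 and 2.0 in the 2 score subsets and 38.7 in gene bodies. In the score subsets the median score was 431.3 and 1022.09, and the share in the top 25% was 50% and 100%, because low scores were removed. The ratio of gene bodies to flanks, 2.44, was 7.74 in the best-scoring 10%, from 3 peaks. The other 71 of 84 alternative values of these results stayed within 1.5 times for counts, or within the 95% interval of the value reported. For single windows 66 of 102 values did, but intervals from so few peaks are wide, so this says little about stability. The SPDEF density went from 8.70 to 20.9 per Mb with a flank of 0.2 Mb and still counted as within. Counting any overlap with the window changed no value. Runs of peaks were not among the planned results, and their limit of 12.5 kb was not varied. The ratios, the narrowing of gene bodies and the shift of tiles by 0.5 of their length were chosen after seeing the data. With that shift all 6 shares of tiles stayed within their 95% intervals. No paired analysis was possible because the list holds no value per replicate, nor could a replicate be left out. Alternatives and results that need an hg19 genome or annotation were not run.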
